A study of Rattus norvegicus with 8 samples.

Results

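A set of 10 enzymes that make, activate or inactivate steroid hormones was examined in the kidney cortex of male and female rats. They were chosen as a named set of genes, Hsd17b1, Hsd17b2, Hsd17b7, Hsd17b11, Hsd11b1, Hsd11b2, Hsd3b1, Srd5a1, Cyp11a1 and Cyp21a1, and their probes were found by the RefSeq accession that each array probe carries. The set took up 10 of the 14737 genes named on the array and 11 of its 30367 non-control probes, with 2 probes for Srd5a1 and 1 for each other gene. All 11 probes were well above background on each of the 8 arrays, so that every one of these enzymes was measured in both sexes and none was lost to the filter on dim probes.

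RNA came from cortical kidney slices of 4 male and 4 female adult Han Wistar rats (strain RCCHanTMWIST), 1 rat per array, and the purpose was to find genes whose expression depends on sex. No treatment is listed for either sex, and the rats of both groups were housed alike. Each RNA was labelled with Cy3 and hybridized alone to 1 array of a single slide, on which each row held 2 males and 2 females. Hormone levels and the oestrous cycle stage of the females were not given in the sources used here.

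A steroid acts through a nuclear receptor, and in many tissues the amount that reaches the receptor is set locally by enzymes that convert an active into a weak hormone or back. Hydroxysteroid dehydrogenases often come in pairs that run the same conversion in opposite directions, one reducing with NADPH and the other oxidizing with NAD. In kidney the best known case is Hsd11b2, which destroys glucocorticoid in the distal nephron and so leaves the mineralocorticoid receptor free for aldosterone. The enzymes that start from cholesterol, in contrast, are known mainly from the adrenal gland and the gonads.

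Signals were expressed as the log2 signal of a probe minus log2 of the 75th percentile of its array, called the relative log2 signal here, and a log2 fold-change is the male minus the female mean. The 75th percentile lay between 5025 and 6547 signal units, the share of probes well above background was 73.8% to 79.1% per array, and there were no saturated spots. Sex-dependent probes were those that combined an adjusted p under 0.05 in limma with a log2 fold-change of 1 or more in size. All 10 proximal tubule markers were well above background on all 8 arrays. As most probes were so on each array, this alone cannot bear out the tissue label. The log2 fold-change was −0.08 for Slc34a1, −0.13 for Slc5a2 and 0.25 for Slc5a12. Of the 10 markers 1, Cubn, passed the adjusted p (−0.59, adjusted p = 0.00452 from limma). Summed over the list, as multiples of the 75th percentile, the proximal tubule markers reached 303 to 342 in males and 313 to 346 in females. Precision is limited by the number of arrays, and nothing in the labels ties a rat of one sex to a rat of the other.

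Hsd17b1 was the one enzyme of the set that was called sex-dependent, and it was male-dominant by 2.86-fold. Among all tested probes, 1.89% were called (443 of 23425). With the adjusted p alone, 3 of the 10 enzymes passed, Hsd17b1 being higher in males and Hsd17b2 and Hsd17b11 higher in females, against 8.06% of all tested probes. For 5 enzymes the values of males and females did not overlap, namely the same 3 with Hsd11b1 and Hsd11b2, against 18.5% of all tested probes. The median absolute log2 fold-change was 0.47 over the leading probes of the 10 enzymes and 0.15 over all tested probes, and the median standard error was 0.177 and 0.111. By sign, 4 enzymes were higher in males and 6 in females, near the share over all tested probes, of which 41.6% were higher in males. The median log2 fold-change of all tested probes was −0.04 with the scaling used here and 0.002 with quantile normalization. A p-value in these comparisons sets the difference between the sexes against the spread between single rats of one strain.

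**Figure D1:**
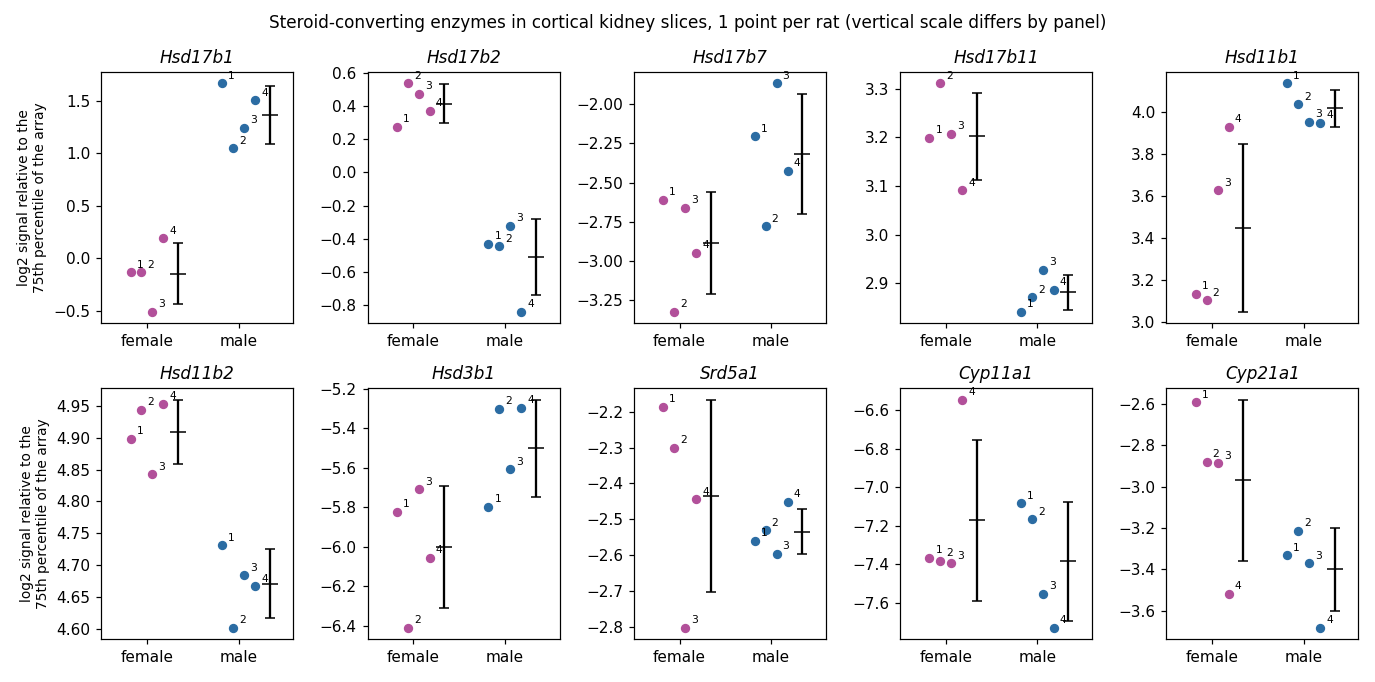
Relative log2 signal (log2 signal minus log2 of the 75th percentile of the array, vertical axis) of the leading probe of each of the 10 enzymes in 4 female and 4 male rats. Each numbered point is 1 rat, and the bar gives the mean and SD of a sex. Points of the sexes are separate for Hsd17b1, Hsd17b2, Hsd17b11, Hsd11b1 and Hsd11b2 and overlap for the other 5 enzymes.

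Hsd17b1 reduces estrone to the more potent estradiol, and the rat enzyme reduces androstenedione to testosterone with like efficiency. Its relative log2 signal (A_42_P518033) was 1.67, 1.05, 1.25 and 1.51 in males 1 to 4 and −0.13, −0.13, −0.51 and 0.19 in females 1 to 4. Every male lay above every female, with a gap between male 2 and female 4 that was wider than the spread of either sex. Means of 1.37 ± 0.27 (SD, n = 4) for the males and −0.15 ± 0.29 (SD, n = 4) for the females gave a log2 fold-change of 1.52 ± 0.177 (SE), with a 95% confidence interval of 1.11 to 1.92 and an adjusted p of 0.00251 in limma. In the two-sided exact permutation test p was 0.0286, the smallest value that 4 rats against 4 allow. Every enzyme whose values do not overlap between the sexes gets this p, which is not adjusted for the number of probes. Of all tested probes, 98.8% had a smaller absolute log2 fold-change. The difference was 1.75 within the first row of the slide and 1.28 within the second. In a slice of tissue, fewer cells that express a gene and less RNA per cell cannot be told apart.

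Hsd17b2 catalyses the reverse step, the oxidation of estradiol to estrone and of testosterone to androstenedione. Its relative log2 signal (A_44_P374638) was −0.43, −0.45, −0.32 and −0.84 in males 1 to 4 and 0.28, 0.54, 0.48 and 0.37 in females 1 to 4. All males were below all females, and male 4 was the lowest. Means of −0.51 ± 0.23 (SD, n = 4) for the males and 0.42 ± 0.12 (SD, n = 4) for the females differed by −0.93 ± 0.121 on the log2 scale (SE, 95% confidence interval −1.20 to −0.65). The enzyme was thus 1.90-fold higher in females, which passed the adjusted p of limma (0.00407) and stayed under the fold-change threshold. The exact permutation test again gave its smallest p (0.0286). Within the rows of the slide the log2 fold-change was −1.06 and −0.79, and 96.7% of the tested probes had a smaller absolute difference.

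Because these enzymes run opposite reactions, the difference of their log2 signals was followed within each rat, with the female mean set to 0. Hsd17b1 minus Hsd17b2 ranged from −0.42 to 0.38 in females and from 2.06 to 2.91 in males, with a male mean of 2.44 ± 0.41 (SD, n = 4). Every male thus lay above every female, on the side of the reductive enzyme. Males 1 and 4, which had the highest Hsd17b1 signals, were also the highest on this scale. The values restate the preceding differences in 1 scale and were not tested, and they say nothing of the amounts of the enzymes, since signals of different probes are not comparable.

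**Figure D2:**
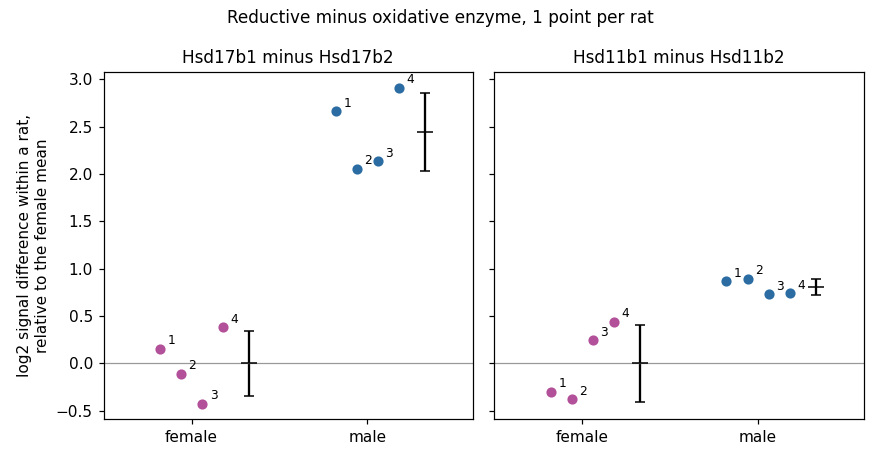
Log2 signal of the reductive enzyme minus that of the oxidative enzyme within each rat, with the female mean set to 0 (vertical axis), for Hsd17b1 and Hsd17b2 (left) and for Hsd11b1 and Hsd11b2 (right). Points are rats and bars are the mean and SD of a sex. Males lie between 2.06 and 2.91 in the left panel and between 0.73 and 0.90 in the right panel, above all females in both.

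Hsd17b7 reduces estrone as well and also serves cholesterol synthesis as a 3-ketosteroid reductase. Its relative log2 signal (A_64_P093269) was −2.20, −2.78, −1.87 and −2.43 in males and −2.61, −3.32, −2.66 and −2.95 in females. Male 2 lay below females 1 and 3, so that the sexes overlapped. With means of −2.32 ± 0.38 (SD, n = 4) and −2.88 ± 0.33 (SD, n = 4), the log2 fold-change was 0.57 ± 0.221 (SE, 95% confidence interval 0.06 to 1.07), and the adjusted p of limma was 0.155. The exact permutation test gave p = 0.0857. In each sex its spread between rats was the largest among the 17-beta enzymes.

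Hsd17b11 oxidizes the 17-hydroxyl group of androgens such as androstanediol and is found on lipid droplets. It was lower in males by a small and tightly measured difference. The relative log2 signal (A_44_P1043814) was 2.84, 2.87, 2.93 and 2.89 in males and 3.20, 3.31, 3.21 and 3.09 in females. The highest male was below the lowest female, female 4. The log2 fold-change was −0.32 ± 0.068 (SE), with a 95% confidence interval of −0.48 to −0.16 and an adjusted p of 0.0273 in limma, or 1.25-fold higher in females, and the exact permutation test gave p = 0.0286. The adjusted p depended on single rats: it was 0.0637, 0.0706 and 0.0697 without female 1, 2 or 3 and 0.0666, 0.0704 and 0.0657 without male 1, 2 or 4. Without female 4 or male 3 it stayed below 0.05, at 0.0285 and 0.0489. The log2 fold-change itself was −0.29 and −0.36 within the rows of the slide.

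Hsd11b1 regenerates active glucocorticoid, in the rat corticosterone, from its inactive 11-keto form. The relative log2 signal (A_44_P1018957) was 4.14, 4.04, 3.95 and 3.95 in males and 3.13, 3.1, 3.63 and 3.93 in females. Males lay within 0.2 of each other, whereas females 1 and 2 stood well below female 4, which almost reached the lowest male. The means were 4.02 ± 0.09 (SD, n = 4) and 3.45 ± 0.40 (SD, n = 4). The log2 fold-change was 0.57 ± 0.182 (SE, 95% confidence interval 0.15 to 0.99) and missed the adjusted p of limma (0.0968). The values did not overlap, which by itself fixes the unadjusted p of the exact permutation test at 0.0286. Without female 4 the log2 fold-change was 0.73 and the adjusted p 0.0257. Females 1 and 2 shared the second row of the slide, and the difference was 0.88 in that row against 0.26 in the first. With the row as a block in limma the adjusted p was 0.0578, and whether slide position had a part in the spread of the females was not tested further.

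Hsd11b2 inactivates glucocorticoid in the opposite direction. Its relative log2 signal (A_44_P545193) was 4.73, 4.60, 4.68 and 4.67 in males and 4.90, 4.94, 4.84 and 4.95 in females. The sexes did not overlap, and the spread within each was the smallest of the set in females and among the smallest in males. The sex difference was a log2 fold-change of −0.24 ± 0.063 (SE, 95% confidence interval −0.38 to −0.10), which is 1.18-fold higher in females. The adjusted p of limma was 0.0551, and the unadjusted p of the exact permutation test was 0.0286, as follows from the lack of overlap. With the log2 values normalized by the authors the difference was smaller, −0.14 (adjusted p = 0.295), and with an intensity trend and a robust prior in limma it passed (adjusted p = 0.0194).

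Hsd11b2 is found mainly in the distal nephron, so markers of neighbouring segments are given beside it. The 7 collecting duct markers, all tested, summed to 42.4 to 54.3 times the 75th percentile in males and 50.5 to 65.7 in females, with log2 fold-changes of −0.37 for Aqp2, 0.31 for Aqp3 and −1.19 for Aqp4. Of these only Aqp4 was called (adjusted p = 0.0235 from limma), a call that was lost without female 1 or male 2 (0.0572 and 0.0666), without male 1 (−0.99, under the fold-change threshold) and without a prior on the variance (0.0619), and its dimmer probes had −1.13 and −0.26. The 4 measured markers of the thick ascending limb summed to 52.2 to 59.0 in males and 61.55 to 70.01 in females, without overlap, with −0.26 for Umod, −0.34 for Kcnj1, 0.02 for Cldn10 and −0.62 for Cldn16 (adjusted p = 0.0287, and 0.0516 to 0.0774 without any 1 female or male 2 or 3). For the distal convoluted and connecting tubule, 3 of 4 markers with a probe were tested, Pvalb being above background on no array, and the sums were 13.4 to 17.6 and 13.5 to 21.2, with 0.18 for Slc12a3, −0.37 for Calb1 and 0.09 for Trpv5. The 5 glomerular markers summed to 11.3 to 12.1 in males and 13.9 to 14.5 in females, again without overlap, with −0.16 for Nphs1, −0.34 for Ptpro (adjusted p = 0.0391, and 0.0654 to 0.0931 without any 1 rat other than female 2) and −0.27 for Podxl (adjusted p = 0.0354, and 0.0654 to 0.0903 without any 1 rat other than male 1). The sums of thick ascending limb and glomerulus thus stood apart by sex in the direction of Hsd11b2, while those of the other segments overlapped. By the median log2 fold-change of the list, however, the collecting duct (−0.32) was like the thick ascending limb (−0.30). The median was −0.21 for the glomerulus and 0.09 for the distal convoluted and connecting tubule. The sums of thick ascending limb, glomerulus and collecting duct rest largely on their brightest marker. These are Umod (mean signal 322086, next Cldn10 with 26385.6), Podxl (51052.5, next Ptpro with 15963.6) and Aqp2 (194142, next Aqp3 with 46997). Values of the sexes did not overlap for 18.5% of all tested probes. Any part of these segments in the difference of Hsd11b2 was not tested.

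Hsd11b1 minus Hsd11b2 within each rat ranged from −0.38 to 0.44 in females and from 0.73 to 0.90 in males, with a male mean of 0.81 ± 0.08 (SD, n = 4). Males again lay above females without overlap, which was fixed in advance, since neither enzyme's values overlapped between the sexes and their signs were opposite. The values restate those differences and were not tested. Neither Hsd11b1 nor Hsd11b2 passed the adjusted p of limma (0.0968 and 0.0551). The shift was smaller than that of Hsd17b1 minus Hsd17b2, and the spread among females, 0.40 as an SD, came mostly from Hsd11b1.

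**Figure D3:**
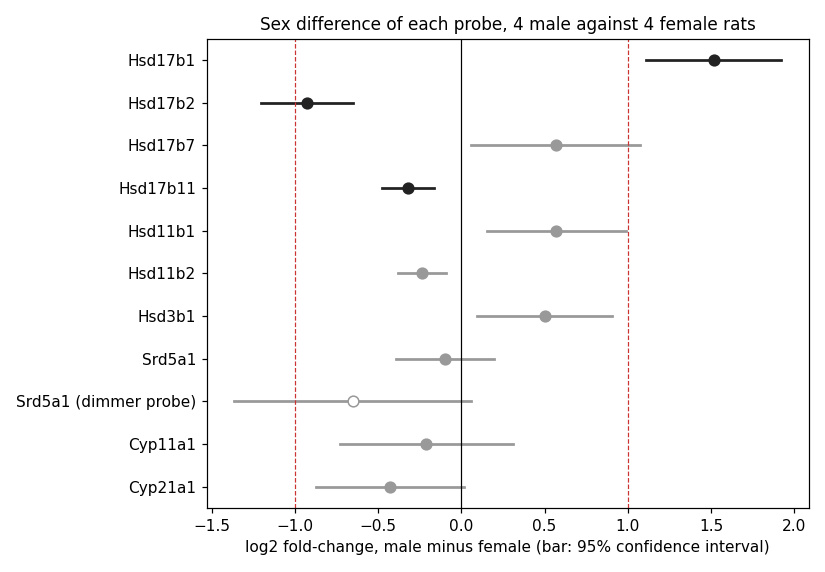
Log2 fold-change (male minus female, horizontal axis) of each probe of the 10 enzymes with its 95% confidence interval from limma. Black marks an adjusted p below 0.05, grey a higher one, the open circle the dimmer probe of Srd5a1, and dashed lines the fold-change threshold. Only Hsd17b1 lies beyond a dashed line, at 1.52, and Hsd17b2 comes close on the other side at −0.93.

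Hsd3b1 turns 3-beta-hydroxy-5-ene steroids into 4-ene-3-ketosteroids such as progesterone. The relative log2 signal (A_64_P123655) was low on these arrays, at −5.80, −5.30, −5.61 and −5.30 in males and −5.82, −6.41, −5.71 and −6.06 in females. Male 1 lay between females 1 and 3, so that the ranges overlapped. The sex difference was a log2 fold-change of 0.50 ± 0.177 (SE), with a 95% confidence interval of 0.10 to 0.90 and an adjusted p of 0.123 in limma, and p was 0.0571 in the exact permutation test. With normexp background correction the difference was 0.27. That setting adds an offset of 50 to each signal, which narrows log2 differences of probes as dim as this one (mean signal 114). Members of the rat Hsd3b family are close in sequence, and a probe of one may also capture transcripts of another. Hsd3b2 and Hsd3b3 were above background on no array and Hsd3b5 on 3 arrays. Hsd3b7, which acts on bile acid precursors, differed by −0.24 on the log2 scale (adjusted p = 0.172).

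Srd5a1 reduces testosterone to dihydrotestosterone. At its brighter probe (A_44_P182431) the relative log2 signal was −2.56, −2.53, −2.60 and −2.45 in males and −2.19, −2.30, −2.80 and −2.44 in females. Males lay inside the range of the females, which held both the highest and the lowest rat. The log2 fold-change was −0.10 ± 0.129 (SE), with a 95% confidence interval of −0.39 to 0.19 and an adjusted p of 0.673 in limma. It was −0.02 without female 1 and −0.22 without female 3, and 0.12 and −0.32 within the rows of the slide. As a ratio of males to females, the interval ran from 0.760 to 1.14. The dimmer probe (A_44_P519871), with a single spot, gave −5.90, −7.37, −7.14 and −6.75 in males and −5.95, −5.81, −6.50 and −6.30 in females. Male 1 stood among the females, and the log2 fold-change was −0.65 ± 0.311 (SE) at an adjusted p of 0.231 in limma. Both probes had the same sign, and neither passed. Srd5a2 and Srd5a3, the other reductases of this name, had −0.16 and −0.03.

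Cyp11a1 cleaves the side chain of cholesterol to give pregnenolone, the first step to every steroid hormone. Its relative log2 signal (A_64_P018756) was low, at −7.08, −7.17, −7.55 and −7.73 in males and −7.37, −7.38, −7.39 and −6.55 in females. Females 1 to 3 were within 0.03 of each other, and female 4 stood far above them and above all males. Over all rats the log2 fold-change was −0.21 ± 0.227 (SE), with a 95% confidence interval of −0.73 to 0.31 and an adjusted p of 0.609 in limma. Without female 4 it was −0.0026.

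Cyp21a1 hydroxylates progesterone at carbon 21 on the way to deoxycorticosterone and corticosterone. The relative log2 signal (A_64_P139442) was −3.33, −3.21, −3.37 and −3.68 in males and −2.59, −2.88, −2.89 and −3.52 in females. Females 1 to 3 were above all males, and female 4 was below all males but male 4. The log2 fold-change was −0.43 ± 0.194 (SE), with a 95% confidence interval of −0.88 to 0.01 and an adjusted p of 0.210 in limma, and the exact permutation test gave p = 0.114. Without female 4 it was −0.61 and passed the adjusted p (0.0402). Female 4 thus was the highest rat for Cyp11a1 and the lowest female for Cyp21a1.

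Promoter windows from RefSeq (build GRCr8) were matched by gene symbol for 6 of the 10 enzymes. For Cyp11a1, Hsd3b1 and Srd5a1 the 250 bases of the window ended at the start of the gene in RefSeq, and these were searched on both strands. For the other 3, Hsd17b7, Hsd17b11 and Cyp21a1, the window reached into the gene or lay within it and was not used, so that none of the enzymes past the adjusted p has a promoter here. The motifs were AGAACA or TGTTCT (a hexamer of steroid response elements), TTCNNNGAA (bound by STAT factors, and overlapping the next motif), TTCCTAGAA or TTCCTCGAA with their reverse complements (the BCL6 core), and AGGTCA or TGACCT (bound by many nuclear receptors). They were present in 17.5%, 7.67%, 0.376% and 14.1% of all 33469 windows of this length. Cyp11a1 held AGGTCA at positions −229 and −95 from the gene start. In Hsd3b1 and Srd5a1 none of these motifs was found in the window. The 3 windows are shown, on the plus strand for Cyp11a1 (chr8:67318415-67318664) and Srd5a1 (chr1:35514664-35514913) and on the minus strand for Hsd3b1 (chr2:188864695-188864944), with matches in capitals. A match is a string of letters and no evidence of binding.
Cyp11a1: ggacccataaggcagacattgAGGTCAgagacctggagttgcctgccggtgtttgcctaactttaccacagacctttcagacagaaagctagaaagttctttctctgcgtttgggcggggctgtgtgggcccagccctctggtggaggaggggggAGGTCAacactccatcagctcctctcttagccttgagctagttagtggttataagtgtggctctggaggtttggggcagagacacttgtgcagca
Hsd3b1: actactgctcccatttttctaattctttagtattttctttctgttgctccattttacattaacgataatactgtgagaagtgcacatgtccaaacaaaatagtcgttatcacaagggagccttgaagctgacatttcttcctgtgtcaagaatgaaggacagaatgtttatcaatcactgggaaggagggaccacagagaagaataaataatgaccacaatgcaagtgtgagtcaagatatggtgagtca
Srd5a1: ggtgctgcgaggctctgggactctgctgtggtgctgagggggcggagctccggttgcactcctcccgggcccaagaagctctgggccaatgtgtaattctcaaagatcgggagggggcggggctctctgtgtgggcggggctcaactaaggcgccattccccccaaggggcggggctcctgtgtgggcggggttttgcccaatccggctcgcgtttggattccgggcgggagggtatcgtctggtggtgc

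Since Cyp11a1 and Cyp21a1 are abundant in the adrenal gland, its markers are given beside them. Of 12 with a probe, 6 were tested, and Star, Cyp11b1, Dbh and Chga were above background on no array. The sum of the 12 was 3.20 to 3.84 times the 75th percentile in males and 3.12 to 7.27 in females. Akr1b7 alone had relative log2 signals of −0.49 to 2.29 in females. Akr1b7 was called in females, differing by −8.16 on the log2 scale (adjusted p = 0.00529 from limma), or by −7.15 without male 2, which was not above background, and by −6.48 with normexp background correction. Mrap passed the adjusted p in males, with 0.87 (adjusted p = 0.00511), and Th had 0.13. Cyp11b3 had −0.28 (adjusted p = 0.345) and −0.46 at another probe, and Cyp11b2 was above background on 2 arrays, so that of the Cyp11b family only Cyp11b3 could be compared. Star, which delivers cholesterol to Cyp11a1, was thus not above background on the arrays on which Cyp11a1 was.

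Beyond the 10 enzymes, 33 further steroid-converting enzymes were listed, of which 28 had a probe and 17 were tested. In 11 of the 28 the signal was above background on fewer than 4 arrays, and in 8 of these on none, among them Hsd17b3, the testicular enzyme that makes testosterone. Rdh16 was called in males and Akr1c14 in females. Over all tested probes 1.89% were called and 8.06% passed the adjusted p. By the adjusted p alone, Hsd17b4 (0.58, adjusted p = 0.042 from limma) also passed in males and Hsd17b10 (−0.38, adjusted p = 0.048) in females, which are best known for the oxidation of fatty acids in peroxisomes and mitochondria. The adjusted p of both rose above 0.05, to 0.119 at most, in most fits that left out 1 rat, all but that without female 1 for Hsd17b4 and that without female 4 for Hsd17b10. The median log2 fold-change of the 17 was −0.17, against −0.04 over all tested probes, and Cyp17a1 had −0.26 (adjusted p = 0.237).

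Rdh16, a retinol dehydrogenase that also oxidizes 3-alpha-hydroxysteroids, had relative log2 signals of −1.11, 0.18, −1.38 and 0.23 in males and −2.06, −2.71, −2.42 and −2.22 in females. Males fell into a higher and a lower pair, both above the females. Its log2 fold-change was 1.83 ± 0.381 (SE) at an adjusted p of 0.0254 in limma, and its other probe was called as well (adjusted p = 0.0160). Without female 2 or 3 or without male 2 or 4 the adjusted p of the brighter probe was 0.0722, 0.0642, 0.0628 and 0.054. Akr1c14, which reduces 3-ketosteroids such as dihydrotestosterone, was near background, at −8.37, −7.30, −7.37 and −8.35 in males, 2 of which were above background, and −6.85, −6.33, −6.76 and −6.48 in females. Its log2 fold-change was −1.24 ± 0.277 (SE) at an adjusted p of 0.0332 in limma. The call was lost without any 1 female and without male 1 or 4, with adjusted p between 0.057 and 0.0888, and it was also lost with quantile normalization (0.0654) and with normexp background correction, where the log2 fold-change was −0.51.

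Of 10 partners that supply electrons, cofactor or cholesterol, 9 were tested and none was called, where 1.89% of all tested probes were. Por, the reductase that feeds electrons to microsomal cytochromes P450, passed the adjusted p in males (log2 fold-change 0.33, adjusted p = 0.0302 from limma), and Tspo, a mitochondrial outer membrane protein, passed it in females with −0.40 (adjusted p = 0.0416). Neither held in every fit that left out 1 rat, since the adjusted p of Por stayed under 0.05 only without male 4 and that of Tspo only without male 1, and otherwise lay between 0.0505 and 0.0982. H6pd, which makes the NADPH that Hsd11b1 uses, had −0.02. Fdx1 and Fdxr, the electron donors of Cyp11a1, had 0.15 and −0.24. The median of the 9 was −0.02.

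All 6 steroid receptors listed were tested, and Esr1 alone was called, against 1.89% of all tested probes. Esr1, the estrogen receptor alpha, had relative log2 signals of −5.89, −5.54, −5.82 and −5.48 in males and −7.25, −7.45, −7.35 and −7.37 in females. The sexes were far apart, at a log2 fold-change of 1.67 ± 0.108 (SE), or 3.19-fold, and an adjusted p of 0.000238 in limma. Of 18 alternatives it was called in 17, and with normexp background correction its log2 fold-change was 0.71, under the threshold. Gper1, a membrane estrogen receptor, had 0.90 at a low signal (adjusted p = 0.062, and 0.0256 without female 4). Over 18 alternatives its log2 fold-change ran from 0.37 to 1.09 and its adjusted p in limma from 0.0256 to 0.138. Esr2 had 0.40 (adjusted p = 0.168). The glucocorticoid receptor Nr3c1 had 0.09, the mineralocorticoid receptor Nr3c2 had −0.19 and the progesterone receptor Pgr had −0.38, with adjusted p between 0.143 and 0.697. The median of the 6 was 0.25. For 12 genes that respond to corticosteroids in the distal nephron, 11 were tested and none was called or passed the adjusted p. Over all tested probes 1.89% were called and 8.06% passed the adjusted p, so a count of none among so few genes says little. Their median was −0.17, against −0.04 over all tested probes. Among them Sgk1 had 0.68 (adjusted p = 0.299) and Tsc22d3 had −0.41 (adjusted p = 0.102, and 0.0239 without female 3).

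**Figure D4:**
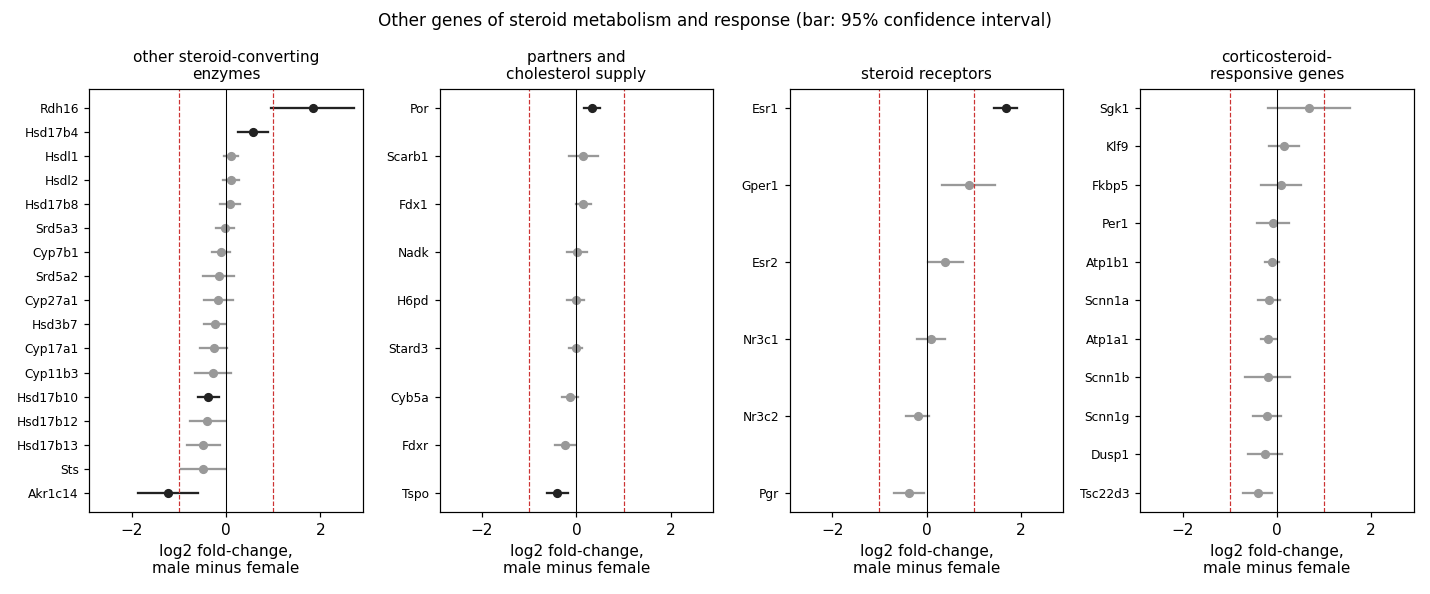
Log2 fold-change (male minus female, horizontal axis) with its 95% confidence interval from limma for the tested genes of 4 lists, from left to right other steroid-converting enzymes, partners and cholesterol supply, steroid receptors, and corticosteroid-responsive genes. Black marks an adjusted p below 0.05, and dashed lines the fold-change threshold. Rdh16 at 1.83 and Esr1 at 1.67 stand out in males and Akr1c14 at −1.24 in females.

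The genes whose profile over the 8 arrays came closest to that of Hsd17b1 were Polr3g, Sema5a and C10h16orf89, among 13148 probes of named genes above background on all arrays. Likeness was the root mean square difference of the mean-centred log2 values, which was 0.151, 0.232 and 0.233. Polr3g, a subunit of RNA polymerase III, ranged from −2.18 to −1.53 in males and from −3.46 to −2.93 in females. As for Hsd17b1, its highest male was male 1 and its lowest and highest females were females 3 and 4. Its lowest male was male 3, whereas that of Hsd17b1 was male 2. A like order of the rats follows from how the gene was picked and is no separate result. Sema5a, a semaphorin, ranged from −2.39 to −2.02 and from −3.46 to −3.28, and C10h16orf89 from −5.69 to −4.89 and from −6.78 to −6.52. These genes were picked by this likeness, so their sex differences are given as ranges and were not tested again.

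Of the remaining marker lists, adipose tissue (5 of 6 with a probe, all tested) summed to 0.328 to 0.479 times the 75th percentile in males and 0.348 to 1.08 in females. Blood and immune cells (6 of 7) summed to 53.2 to 77.5 and 63.8 to 77.9, and endothelium and stroma (6 of 6) to 19.6 to 22.5 and 21.1 to 22.4. The log2 fold-change was −0.41 for Adipoq, −0.30 for Lep and −1.54 for Cfd (−0.88 without female 1, the highest rat), −0.19 for Hbb, 0.12 for Alas2 and 0.43 for Ptprc, and −0.11 for Pecam1, −0.06 for Kdr and 0.08 for Cdh5. No gene of these 3 lists passed the adjusted p of limma, although Ptprc passed it without female 4 (adjusted p = 0.0378).

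**Figure D5:**
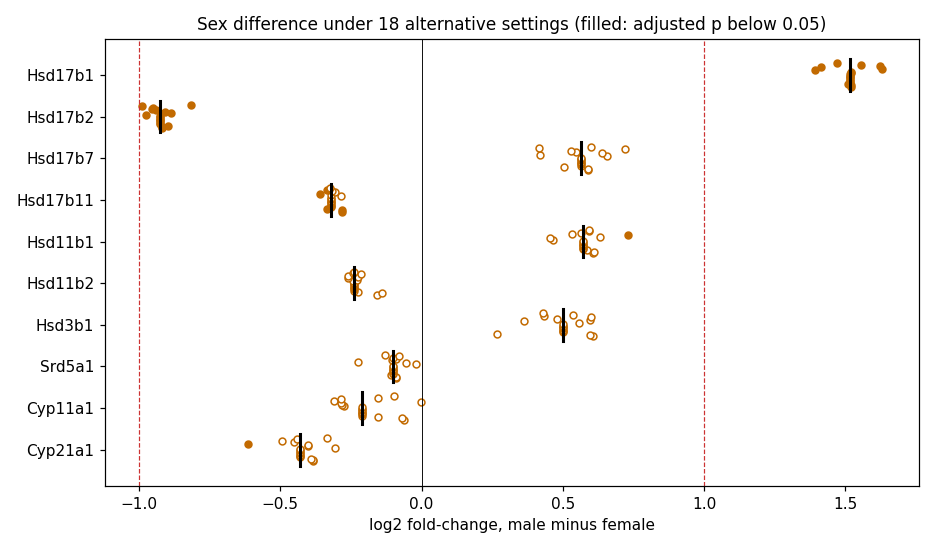
Log2 fold-change (male minus female, horizontal axis) of each enzyme under 18 alternative settings of the analysis (points, filled where the adjusted p was below 0.05) and under the setting reported here (vertical bar). Dashed lines mark the fold-change threshold. Hsd17b1 stays between 1.39 and 1.63 and Hsd17b2 between −0.99 and −0.82, both filled throughout, and no enzyme changes sign.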

How the data were processed

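Total RNA of 1 cortical kidney slice per rat was hybridized to SurePrint G3 Rat one-colour arrays. The authors deposited spot intensity values per array from Feature Extraction 10.7.3.1, with background removed but arrays not normalized to each other. A deposited table of log2 values has the same distribution on every array and keeps the rank order of the signals, as quantile normalization gives, for which the submitters' processing notes name limma 3.8.2. The headers place the probes on an older rat build, so no gene coordinates were given except for promoters. Samples were grouped by sex from the labels.

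Without outlier spots, log2 intensities were reduced by log2 of the array's 75th percentile over non-control spots and averaged per probe. Probes with a signal well above background on 4 or more of the 8 arrays were tested (23425) in R 4.3.3 with limma 3.58.1 (lmFit and eBayes, no covariates) with Benjamini-Hochberg adjustment over all of them. Single values were also compared by a two-sided exact permutation test over 70 assignments. The limma step was tested on simulated data. Figures came from matplotlib 3.10.9 (Python 3.11.15).

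The members and gene lists were chosen with earlier results of these data known. Named were the 10 enzymes with all probes, listed pathway genes past both thresholds, the steroid receptors reported, the Hsd3b and Cyp11b families, leading markers of each list and the 3 nearest profiles of a called enzyme. Other genes named for the adjusted p, or as partners and corticosteroid-responsive genes, were chosen after their values were seen. The brightest probe stood for a gene. Alternatives were quantile normalization, the authors' log2 values, normexp background correction (offset 50), 2 other filters, outlier spots kept, 2 other variance priors, the replicate number or the slide row as a block, leaving out each array, and other probes of a gene. Some genes of the lists are not reported here, and real-time PCR and luciferase assays were not analysed here.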

Additional observations from a re-analysis of the deposited data

Results flagged for a closer look

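In 22 groups of 4 values (11 probes in 2 sexes) the gap of the highest or lowest rat to its neighbour was set against the whole range of the group. Cyp11a1 in females was the only group past Dixon's 95% critical value for 4 samples, where about 1.1 groups are expected by chance. Female replicate 4 had a relative log2 signal of −6.55, while the other females lay between −7.39 and −7.37, and the gap was 0.967 of the range. The cause was not tested.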

How the results depend on the processing

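Each of the 10 enzymes was recomputed under 18 alternatives, and none reversed its direction in any of them. Hsd17b1 met both thresholds in all 18 (log2 fold-change 1.39 to 1.63, adjusted p 0.000555 to 0.0159), and Hsd17b2 met the adjusted p in all 18 (−0.99 to −0.82, adjusted p 0.00111 to 0.0219) without reaching the fold-change. Hsd17b11 met it in 10, and besides the single rats named above it was lost without a filter on dim probes (adjusted p = 0.0542). Hsd11b2 passed in 2, with the intensity trend and without a prior on the variance (adjusted p = 0.0194 and 0.0236). The number of enzymes past the adjusted p, 3 as reported, ranged from 2 to 5 when 1 array was left out, and was 5 without female replicate 4, where Hsd11b1 and Cyp21a1 passed as well. Of the pathway genes, 3 were called as reported, but 1 with normexp background correction and 1 without a prior on the variance, and the count ranged from 1 to 3 when 1 array was left out, with 1 without female replicate 2, female replicate 3 or male replicate 4. Over all probes, the count of calls went from 443 to 298 with normexp background correction and was 324 without a prior. The cause of these changes was not tested. In the labels, same-numbered males and females shared only a number. Their deviations correlated by 0.125, 0.0427, −0.00794 and 0.117. Males 1, 2 and 4 correlated best with the female of their own number but male 3 with female 4. Correlations this small cannot decide whether rats were handled in pairs, and how often such matches arise by chance was not tested. With the replicate block, 3 enzymes passed the adjusted p, Hsd17b7 (0.0371) in place of Hsd17b11 (0.0793), Hsd17b1 stayed called (adjusted p = 0.0126), and 372 probes were called in all. Of 51 other named genes, 7 changed sign in 13 values, none of them past the adjusted p. Esr2 was −0.015 with normexp background correction and Srd5a3 0.012, and Slc34a1 was 0.0230 both with quantile normalization and with the authors' log2 values. When 1 array was left out, Srd5a3 ranged from −0.073 to 0.0173, H6pd from −0.067 to 0.0293, Trpv5 from −0.0090 to 0.193, Cldn10 from −0.055 to 0.116 and Alas2 from −0.209 to 0.274. Without a prior, Rdh16 and Akr1c14 were lost (adjusted p = 0.0685 and 0.0796), as was Rdh16 with the replicate block (0.0643). Quantile normalization raised the median of all log2 fold-changes by 0.0469. Low signals, such as those of Cyp11a1, of Akr1c14 and of Esr1 in females, lie close to the background, which limits their precision.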
